A study of Rattus norvegicus with 18 samples.

Results

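In the gastrocnemius of the rats studied here, 28 genes, chosen by their counts in all 18 libraries, were higher in every aged CR rat than in every rat fed AL, young or aged. The measure was CPM, a gene's counts per 1000000 counts that its library had outside the mitochondrial chromosome. A gene was eligible when it lay on chromosomes 1 to 20 and had a mean of at least 1 CPM over the 18 libraries, which 12848 of the 32883 identifiers in the deposited table did. It was a member when the lowest of the 6 CR libraries exceeded the highest of the 12 AL libraries, which held for 0.218% of the eligible genes. The difference between CR and AL is therefore what chose these genes. Its values are a description of that choice. Where counts from the fit of all genes are printed for it, their direction was fixed by the choice and they are no evidence for it.

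All groups were male Brown Norway rats on the same chow, fed without limit until 2 months of age and then housed singly. Of these, 6 young AL rats and 6 aged AL rats continued on unlimited food to 6 and 28 months of age, and 6 aged CR rats received 55% of AL intake from 2 months to 28 months. There was no young CR group. The CR rats were given their ration in a short period each morning while AL food was present day and night. Smaller intake and time since the last meal therefore cannot be told apart in these samples. RNA of the whole muscle was depleted of ribosomal RNA and sequenced, 1 library per rat. In such bulk RNA, fewer cells of a type and less RNA per cell cannot be told apart.

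The gastrocnemius is a calf muscle of mixed fibre types. Skeletal muscle draws on glucose after a meal and moves to fatty acids and, when fasting is long, to its own protein as the meal recedes, and this is accompanied by changes in the transcription of genes for fuel uptake and use. Meal times also set the phase of daily rhythms in muscle gene expression. Caloric restriction is a lower energy intake without malnutrition, and it is known for slowing the loss of muscle with age in rodents.

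Genes carry Ensembl identifiers in the table, and nothing used here pairs these with symbols. The 28 genes are therefore described by position on Rnor_6.0 and by a name made of the chromosome and a letter in order of position. Their functions, the tissue markers that would check the muscle label and their promoter sequences were not analysed here.

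Total counts per library ranged from 17335401 to 27432767. Of the 18 libraries, 15 matched 1 rat by name, and the other 3, all of the CR group, are called by their library numbers 8826, 8827 and 8828. In the names of these 3, the sample number and the library number belong to different CR rats in the labels. Library 8826 thus carries the sample number of rat 15, which has its own library. Each group has its own block of library numbers, so that handling in blocks, if there was any, and group cannot be told apart. The scaling factor that edgeR computes to balance the composition of libraries (TMM) was 1.42 for rat 8, an aged rat fed AL, and between 0.85 and 1.12 for the other 17 libraries. The share of counts on 2 mitochondrial genes was between 0.34% and 3.10% in AL libraries and between 0.91% and 10.3% in CR libraries. The other mitochondrial genes did not share this rise. Their share was 2.36% to 5.25% in young AL, 2.25% to 5.91% in aged AL and 1.58% to 2.80% in aged CR libraries. All mitochondrial genes were outside the library totals used for CPM. With totals that include the mitochondrial genes, 24 genes met the condition, and 6 of the 28 no longer did. Any other part of these differences in the results was not tested.

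The widest gap between the groups was found in 9a (ENSRNOG00000020254, chr9:98555169-98597359, minus strand). It had 16.003 to 44.9 CPM (median 28.6) in young AL rats, 16.5 to 45.4 (median 33.5) in aged AL rats, and 76.8 to 89.7 (median 81.3) in aged CR rats. The lowest CR library was 1.69 times the highest AL library. The AL groups overlapped over nearly their whole range, and the CR libraries lay close together, with a coefficient of variation of 5.25% against 36.6% and 34.6% in young and aged AL rats.

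The gene with the second widest gap was 7a (ENSRNOG00000033397, chr7:135466884-135630654, minus strand), which has 52 exon blocks, the most of the 28. Its levels were 9.75 to 14.8 CPM (median 11.5) in young AL rats, 14.3 to 18.6 (median 15.7) in aged AL rats and 26.5 to 44.4 (median 32.6) in aged CR rats. Here the aged AL rats lay above all young rats but 1, and the CR libraries spread over a wider range than both AL groups.

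A lower level and a larger relative difference were seen in 3c (chr3:173798545-173871904, plus strand). It was detected by 2 to 21 counts in young AL rats, 6 to 30 in aged AL rats and 40 to 90 in aged CR rats, which gave medians of 0.384, 0.872 and 2.92 CPM. The ratio of the CR median to the median of all AL rats was 4.87, the largest of the 28 genes. Its means were 0.450 CPM in young and 0.912 in aged AL rats, so that it reached the minimum mean of 1 CPM only through the CR group.

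Next in order were 20a (chr20:34575950-34684418, minus strand) and 7b (chr7:142817157-142860572, plus strand). Levels of 20a were 40.0 to 82.6 CPM (median 66.4) in young AL rats, 42.1 to 82.5 (median 60.7) in aged AL rats and 112 to 167 (median 123) in aged CR rats. Levels of 7b were 41.7 to 66.9 CPM (median 54.3) in young AL rats, 35.1 to 57.8 (median 45.3) in aged AL rats and 89.4 to 132 (median 97.8) in aged CR rats. In both genes rat 15 was the lowest CR rat, and the AL groups overlapped.

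Both of these genes share ground with another gene. The counts were made without regard to strand, so that reads from overlapping genes on opposite strands can be confused where exons overlap. The span of 20a holds a plus-strand gene of 16.1 CPM (mean of 18 libraries) at chr20:34633157-34642904, with 0 shared exonic bases. The last 36 exonic bases of 7b are shared with a minus-strand gene of 1.40 CPM at chr7:142860537-142870300. The other overlapping annotations, in 3a, 3c, 5a, 5c and 8a, shared no exonic base with the member and had means of 0.40 CPM or less.

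**Figure D1:**
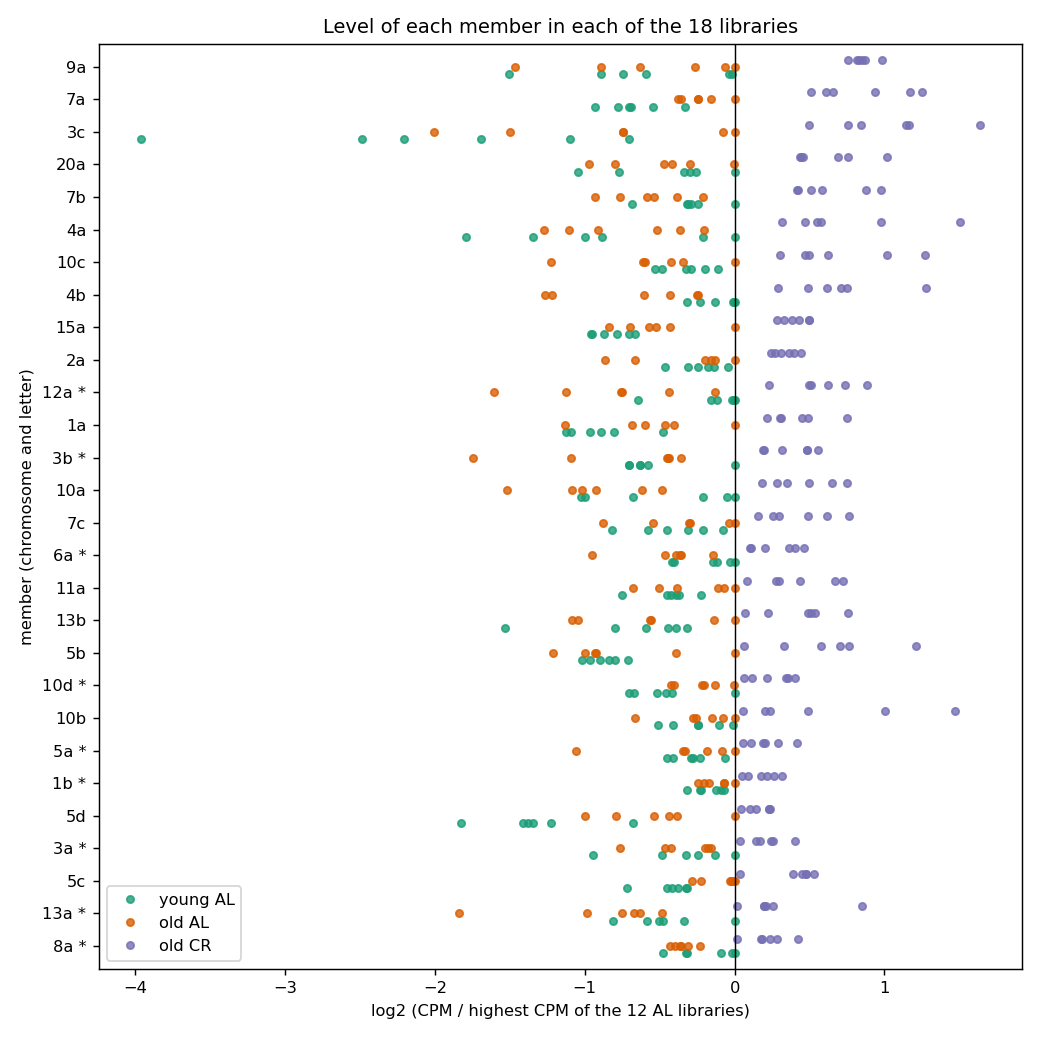
Level of each of the 28 genes (vertical axis, widest gap at the top) in each of the 18 libraries, as log2 of CPM over the highest CPM of the 12 AL libraries (horizontal axis); young AL, old AL and old CR stand for young AL rats, aged AL rats and aged CR rats. All 6 CR points of every gene lie right of the line at 0, as the choice of genes requires, and an asterisk marks the 9 genes that no longer met the condition with TMM-scaled totals.

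The genes 4a, 10c, 4b and 1a had few counts. For 4a (chr4:88832178-88890621, plus strand) the level was 1.68 to 5.84 CPM (median 3.04) in young AL rats, 2.42 to 5.06 (median 3.60) in aged AL rats and 7.28 to 16.6 (median 8.63) in aged CR rats. For 10c (chr10:77840568-77918191, minus strand) the 3 groups had 2.35 to 3.14 CPM (median 2.74), 1.45 to 3.39 (median 2.38) and 4.19 to 8.19 (median 5.01). Library 8826 was the highest CR library for 4a and rat 14 for 10c.

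Single-exon 4b (chr4:159190804-159192526, minus strand) had 1.052 to 1.31 CPM (median 1.25) in young AL rats, 0.545 to 1.11 (median 0.918) in aged AL rats and 1.61 to 3.19 (median 2.08) in aged CR rats, from 9 to 63 counts per library. For 1a (chr1:164181764-164205222, minus strand) the values were 2.00 to 3.14 CPM (median 2.296), 2.00 to 4.37 (median 3.02) and 5.08 to 7.34 (median 5.70). In 4b the aged AL rats reached lower than the young rats, whereas in 1a they reached higher.

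In 15a and 2a the aged AL rats had the widest range of the 3 groups. For 15a (chr15:19473373-19541815, minus strand) the CR libraries had 35.5 to 41.0 CPM (median 38.6), against 14.98 to 18.4 (median 16.4) in young and 16.3 to 29.1 (median 19.9) in aged AL rats. For 2a (chr2:201289357-201390745, plus strand) they had 86.5 to 99.2 CPM (median 92.4), against 53.0 to 71.0 (median 63.2) and 40.1 to 73.1 (median 64.7). Over the 28 genes, the SD of log2 CPM was smallest in the CR group for 16, in the young group for 7 and in aged AL rats for 5. Its median was 0.22 in CR rats, 0.23 in young and 0.35 in aged AL rats, where all eligible genes had 0.25, 0.28 and 0.38. Since a gene with a scattered group is less likely to have met the condition, these spreads are a description only.

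Chromosome 12 held 12a (chr12:51214192-51250230, minus strand), with 42.3 to 66.0 CPM (median 63.1) in young AL rats, 21.7 to 60.4 (median 39.1) in aged AL rats and 77.4 to 122 (median 98.1) in aged CR rats. For 10a (chr10:10591251-10629735, minus strand) the groups had 11.3 to 23.1 CPM (median 17.2), 8.06 to 16.5 (median 11.8) and 26.2 to 38.9 (median 30.9). In both genes the aged AL rats lay toward lower values than the young rats, with overlap.

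Levels of 3b (chr3:125169135-125213607, minus strand) were 230 to 375 CPM (median 242) in young AL rats, 112 to 293 (median 275) in aged AL rats and 427 to 552 (median 495) in aged CR rats. Those of 6a (chr6:2568990-2610437, plus strand) were 150 to 201 CPM (median 183), 104 to 182 (median 154) and 216 to 276 (median 244). Rat 3 was the highest AL rat and rat 7 the lowest in both genes.

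The third gene of chromosome 7, 7c (chr7:145146481-145154131, minus strand), had 64.5 to 108 CPM (median 87.4) in young AL rats, 61.9 to 114 (median 92.3) in aged AL rats and 127 to 193 (median 150) in aged CR rats. For 11a (chr11:82945104-82978364, plus strand) the groups had 13.7 to 19.8 CPM (median 17.5), 14.5 to 23.1 (median 19.6) and 24.4 to 38.1 (median 29.8). For 13b (chr13:80755058-80775264, minus strand) they had 20.7 to 48.1 CPM (median 41.9), 28.3 to 59.9 (median 40.6) and 62.7 to 101.4 (median 84.8). In these genes the highest AL rat was an aged one, and the AL groups overlapped.

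In 5b (chr5:58855773-58882096, plus strand) 1 aged AL rat set the border. Young rats fed AL had 44.9 to 55.6 CPM (median 49.7), aged AL rats 39.3 to 90.9 (median 47.8) and aged CR rats 95.1 to 210 (median 142). The highest of the aged AL rats was rat 11, and the lowest CR library was 8828. The ratio of the medians was 2.93 and the ratio across the border 1.047. For 10d (chr10:86313383-86335923, plus strand) the groups had 15.8 to 25.7 CPM (median 18.3), 19.2 to 25.6 (median 22.2) and 26.8 to 33.9 (median 31.2), and rat 1, a young rat, was at the border.

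**Figure D2:**
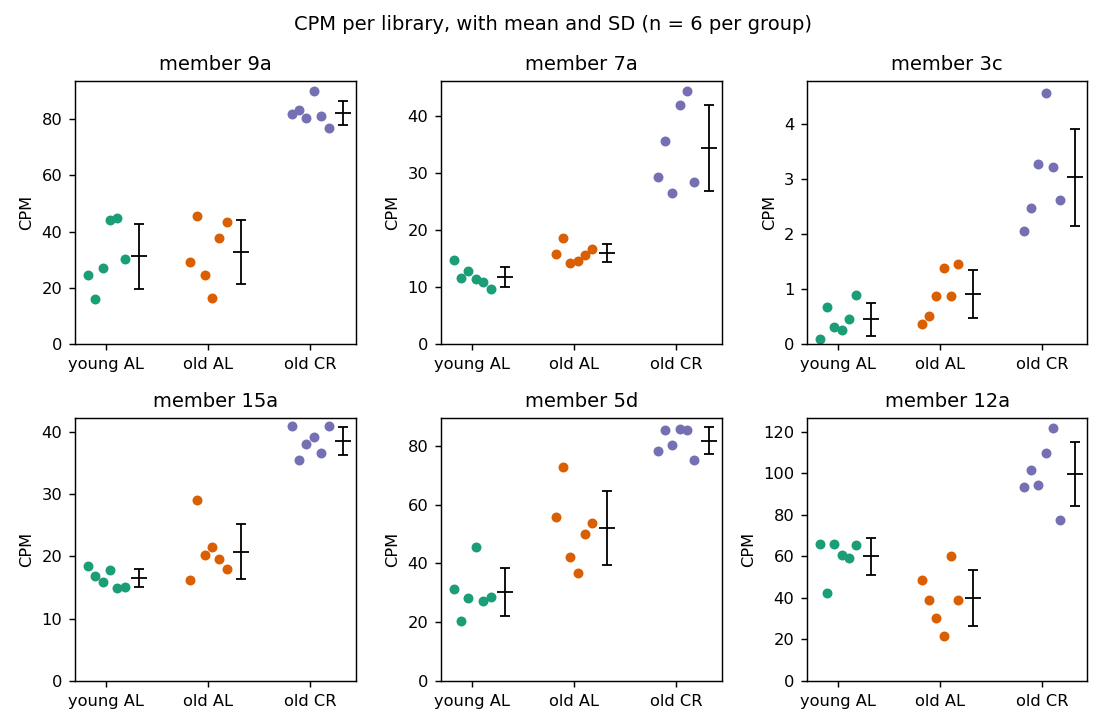
CPM per library (vertical axis, linear, from 0) of 9a, 7a, 3c, 15a, 5d and 12a in young AL rats, aged AL rats (old AL) and aged CR rats (old CR), 1 point per library, with the mean and SD of 6 libraries beside each group in black. The CR libraries of 9a lie between 76.8 and 89.7, above all AL libraries, and those of 5d between 75.2 and 85.8, just above rat 8 at 72.9.

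The narrowest gaps were found in 8a, 13a and 5c. For 8a (chr8:104040934-104176446, plus strand) the lowest CR rat had 57.0 CPM and the highest AL rat 56.4. Levels were 40.5 to 56.4 CPM (median 49.0) in young AL rats, 41.9 to 47.9 (median 43.9) in aged AL rats and 57.0 to 75.4 (median 65.1) in aged CR rats. For 13a (chr13:71331052-71340229, plus strand) the lowest CR rat, rat 15, had 2264 CPM and the highest AL rat, rat 6, had 2236. Its levels were 1273 to 2236 CPM (median 1592) in young AL rats, 624 to 1599 (median 1366) in aged AL rats and 2264 to 4035 (median 2571) in aged CR rats. In both genes a young rat was at the border, and the values across it differed by less than the spread within any group.

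For 5c (chr5:151089900-151117042, minus strand) the groups had 8.05 to 10.6 CPM (median 10.1), 10.8 to 13.2 (median 13.002) and 13.6 to 19.1 (median 18.2), and library 8827 was the lowest CR library. It was the only one of the 28 genes whose AL groups did not overlap, all aged rats lying above all young rats. Over the 12848 eligible genes the AL groups did not overlap for 434, or 3.38%.

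Just outside the condition lay 3 genes with a ratio of 0.99, at chr1:231393379-231530786, chr19:23542889-23554594 and chr7:123043503-123058604. Their lowest CR values were 57.0, 24.4 and 288 CPM, and their highest AL values 57.6, 24.7 and 291 CPM. Among the 28 genes, 13 had a ratio of lowest CR to highest AL value under 1.1 and 9 had one over 1.2, so that the border passed through closely spaced genes. The ratio of the CR median to the AL median ran from 1.27 to 4.87 with a median of 1.87, was above 2 for 11 genes and under 1.5 for 5.

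Levels can be set beside each other between genes only per length. With counts divided by exonic length and scaled to the same sum in each library (TPM, without mitochondrial genes), the highest of the 28 was 13a, with a median of 1025 TPM in AL rats and 1850 TPM in CR rats. This was rank 96 of the 12848 eligible genes in AL rats and rank 43 in CR rats. Then came 3b, with 141 and 279 TPM, and 7c, with 102 and 172 TPM. The lowest in AL rats was 3c, with 0.48 TPM and 2.48 TPM in CR rats, and the lowest in CR rats was 4b, with 1.11 TPM in AL rats and 2.16 TPM in CR rats. The levels of the 28 genes thus covered a wide range, from 1 gene among the 96 highest to genes with fewer than 10 counts in some libraries.

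The comparison of aged with young AL rats entered the choice of genes through the highest of their values. The choice could also enter the test through the spread, which the fit estimated from all 18 libraries, and this was not tested. The comparison was tested for all 14646 genes that passed edgeR's filter on low counts, all 28 among them. The call required a Benjamini-Hochberg adjusted p not above 0.05 together with a change of 1.5-fold or more (edgeR quasi-likelihood). Of the 28 genes 2 were called, or 7.14%, where 3.39% of all genes tested were called. With only the 12 AL libraries in the fit, 0 of the 28 and 258 of 14086 genes tested were called. With 2 calls, the genes are described singly, without a statement on the group.

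The gene that rose with age was 5d (chr5:168086998-168123395, minus strand). It had 20.5 to 45.5 CPM (median 28.3) in young AL rats, 36.5 to 72.9 (median 52.0) in aged AL rats and 75.2 to 85.8 (median 82.9) in aged CR rats. Rat 4 was the highest young rat and lay above rats 9 and 10, the lowest of the aged. The log2 fold change of aged over young AL rats was 0.60 (standard error 0.14, adjusted p = 0.0224 over all genes tested, edgeR quasi-likelihood). The call was lost when rat 2, 5, 8 or 12 was left out, where the log2 fold change was between 0.50 and 0.58, without both rat 8 and library 8828 (0.58), and with only the 12 AL libraries in the fit (0.61, adjusted p = 0.0633, edgeR). It held in 19 of 25 alternatives, over which adjusted p lay between 0.00208 and 0.0633. These 25 all kept the thresholds of the call. With the limit on adjusted p set to 0.01, the call of 5d was lost.

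The gene that fell with age was 12a, whose values are given above. The log2 fold change was -0.77 (standard error 0.20, adjusted p = 0.0388, same test). Rats 7 and 11 were the aged AL rats that lay above rat 2, the lowest of the young. The call was lost without any 1 of rats 1, 3, 4, 5, 6, 8, 9, 10 or 12, with an adjusted p of up to 0.0903, while the log2 fold change stayed between -0.94 and -0.59 in all 25 alternatives. It was also lost without TMM factors, at -0.59 (adjusted p = 0.0742, edgeR), with no filter on low counts, at -0.74 (adjusted p = 0.0604, edgeR), and with only the 12 AL libraries in the fit, at -0.75 (adjusted p = 0.0807, edgeR). It held in 13 of 25 alternatives, all at the thresholds of the call, and was lost with the limit on adjusted p set to 0.01. Among the 28 genes, 5d and 12a thus lay on opposite sides between the AL groups, and in both the CR rats were the highest group.

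The other 26 genes were not called, with adjusted p of 0.138 or more. Of these, 8a, 6a, 7b, 13a, 10a and 4b had an unadjusted p under 0.05, each with a lower value in aged rats. Their log2 fold changes were -0.30 for 8a, -0.39 for 6a, -0.39 for 7b, -0.52 for 13a, -0.60 for 10a and -0.63 for 4b. With 5d and 12a, 8 of the 28 genes had an unadjusted p under 0.05, where 22.3% of all genes tested had one. The value of 3c, eligible only through the CR group, was 0.91 (standard error 0.45, adjusted p = 0.240, same test), and 5c had 0.21 (standard error 0.13, adjusted p = 0.340, same test) although its AL groups did not overlap in CPM.

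In sign, 10 of the 28 genes had a higher and 18 a lower value in aged than in young AL rats. Their median log2 fold change was -0.11, where all genes tested had 0.01. It was -0.06 without rat 7 and -0.07 without rat 8, the aged AL rats whose omission moved it most toward 0. With library totals without TMM factors in the same test, 15 of the 28 were higher, and the median was 0.03, where that of all genes tested moved to 0.17. The balance of directions thus depended on the scaling, and since the condition capped the AL values, nothing is read from it for the group. The smallest difference was that of 13b, with 0.00 (standard error 0.20).

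**Figure D3:**
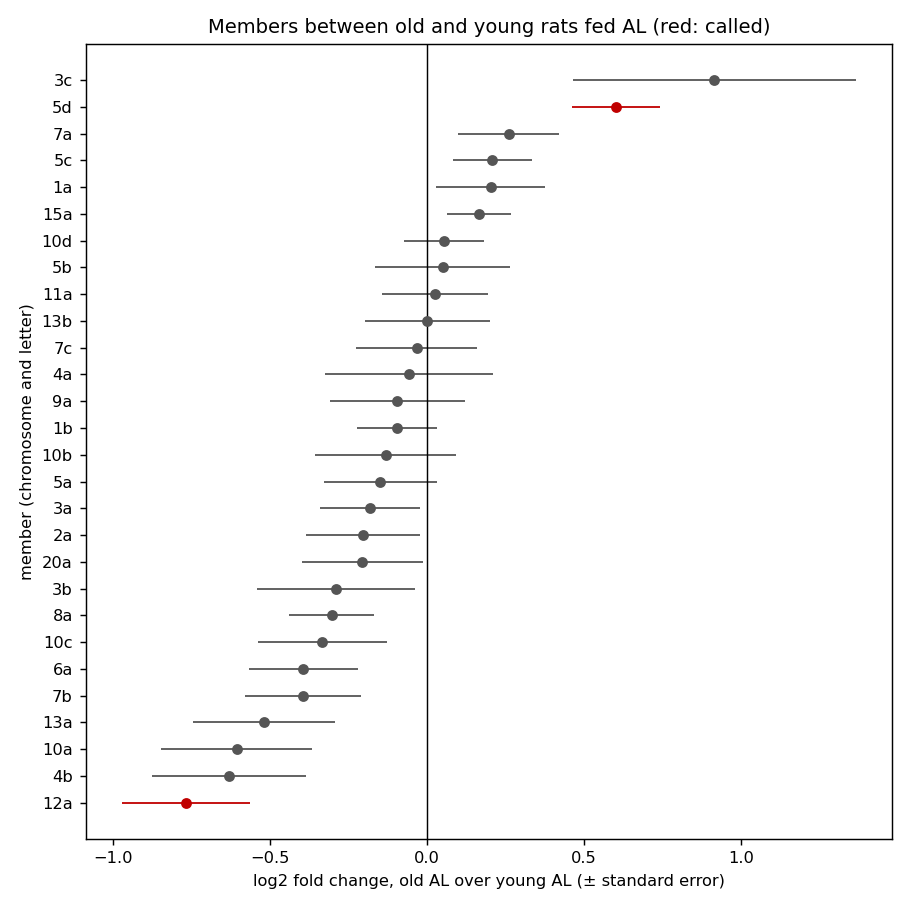
Log2 fold change of aged over young AL rats (horizontal axis) for each of the 28 genes (vertical axis), with the standard error of edgeR's fit as a bar; called genes are in red. The called genes 5d at 0.60 and 12a at -0.77 stand on opposite sides, and 3c, at 0.91, has the largest standard error, 0.45.

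In the same fit, the differences of the CR group describe the size of what the condition chose. The thresholds of the call were passed by 24 of the 28 genes against aged AL rats (0.833% of all genes tested higher in CR, 1.38% in either direction) and by 17 against young AL rats (0.765% and 1.98%). The condition used both comparisons, which share the CR rats, so these counts follow from the choice of genes and nothing is read from them. The log2 fold changes ran from 0.41 to 1.78 (median 1.05) against aged rats and from 0.31 to 2.69 (median 0.84) against young rats. The largest in both was 3c and the smallest 1b (chr1:228395558-228425361, plus strand).

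Side by side, 9a had log2 fold changes of 1.46 against aged AL rats and 1.37 against young rats, with standard errors of 0.22 and 0.22. For 7a they were 1.23 and 1.49, with standard errors of 0.16 and 0.16, and for 3c 1.78 and 2.69, with standard errors of 0.43 and 0.45. In 7a and 3c the value against young rats was the larger. Values for 20a were 1.22 and 1.02, for 7b 1.28 and 0.89, for 4a 1.57 and 1.52, and for 5b 1.43 and 1.48. In 12a the CR rats stood 1.45 above the aged and 0.69 above the young rats, and in 5d 0.80 above the aged and 1.40 above the young rats.

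In several genes the value against aged AL rats was the larger. For 4b the values were 1.42 and 0.79, for 10a 1.44 and 0.84, for 13a 1.21 and 0.69, for 6a 0.80 and 0.40, for 10c 1.35 and 1.02, and for 8a 0.67 and 0.37. For 1a the values were 1.06 and 1.26, for 13b 1.04 and 1.04, for 11a 0.77 and 0.80, for 7c 0.84 and 0.81, and for 10d 0.60 and 0.65.

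Among the smaller log2 fold changes against aged AL rats were those of 1b, 2a, 5a and 5c, with 0.41, 0.71, 0.60 and 0.58. For 1b the groups had 173 to 205 CPM (median 191), 181 to 215 (median 198) and 222 to 268 (median 246), so that the 3 ranges were narrow and close. For 5a (chr5:36555109-36629689, plus strand) they had 53.1 to 69.4 CPM (median 59.5), 34.8 to 72.5 (median 60.7) and 75.5 to 96.7 (median 83.2). The lowest aged AL rat was rat 8 in 2a and rat 7 in 5a.

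Of the genes not yet described, 3a (chr3:51532627-51643140, minus strand) had 13.1 to 25.2 CPM (median 20.7) in young AL rats, 14.8 to 22.7 (median 20.4) in aged AL rats and 25.9 to 33.4 (median 29.1) in aged CR rats. In 10b (chr10:65586504-65590126, plus strand) the groups had 3.55 to 5.01 CPM (median 4.26), 3.18 to 5.05 (median 4.39) and 5.26 to 14.04 (median 6.53), and library 8827 was the highest. The CR coefficient of variation of 10b, 42.4%, was the largest of the 28 genes.

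The libraries did not contribute evenly to the borders. Among CR libraries, rat 15 had the lowest value in 8 of the 28 genes and library 8828 in 7, whereas library 8826 had the highest in 10. Among AL libraries, rat 8 had the highest value in 6 genes, and rats 3 and 11 in 4 each, while rat 7 had the lowest value of the aged AL group in 16. The 28 genes together made up 2720 to 3577 CPM in young AL rats, 1659 to 2924 in aged AL rats and 4446 to 6220 in aged CR rats, with 13a as the largest part.

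Leaving out a library can lower the highest AL or raise the lowest CR value and so only moves the border in favour of more genes. Without rat 8, 48 genes met the condition, and without library 8828 there were 47. With both left out there were 68. Leaving out any 1 of the other 16 libraries gave 28 to 34 genes. Thus rat 8, whose TMM factor was 1.42, kept out 20 genes, and library 8828 kept out 19.

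**Figure D4:**
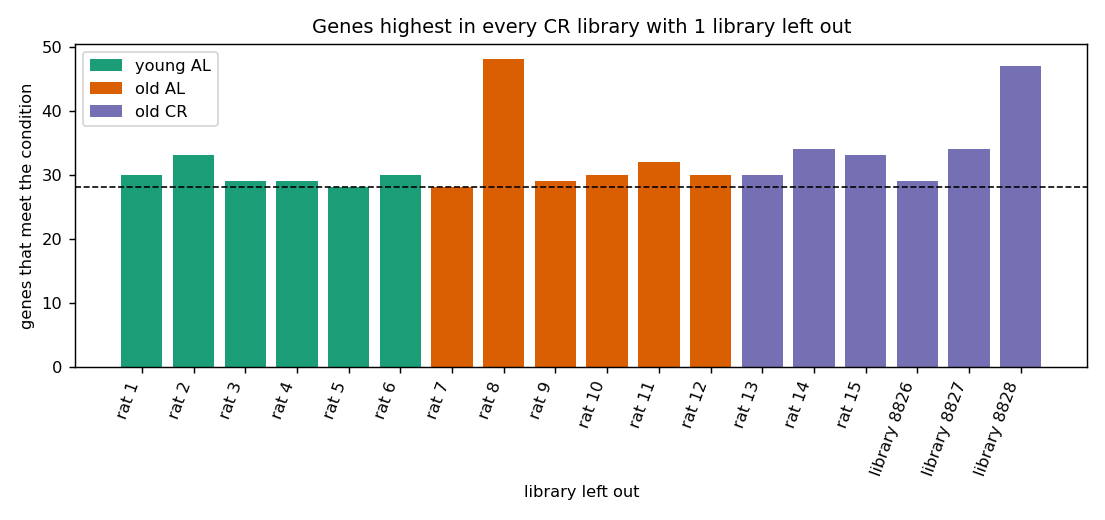
Number of genes that met the condition (vertical axis, from 0) when the library named on the horizontal axis was left out; colours give the group and the dashed line the 28 genes found with all 18 libraries. Rat 8 and library 8828 stand apart with 48 and 47 genes, and the other libraries give 28 to 34.

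The choice of scaling also moved the border. With TMM-scaled totals 35 genes met the condition, and with DESeq2's size factors 38, and both kept the same 19 of the 28 genes. Those lost were 1b, 3a, 3b, 5a, 6a, 8a, 10d, 12a and 13a. With totals that include the mitochondrial genes 24 genes met the condition, and 22 of the 28 were kept. The 15 genes that met it under each of these scalings were 1a, 2a, 3c, 4a, 4b, 5b, 5d, 7a, 7b, 7c, 9a, 10a, 10c, 15a and 20a.

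By position, the 28 genes were spread over 15 of the 20 chromosomes, with 4 each on chromosomes 5 and 10 and 3 each on chromosomes 3 and 7. Chromosomes 14, 16, 17, 18 and 19 held none. The closest pair were 7b and 7c, 2.29 Mb apart. None of the 56 nearest eligible neighbours, 1 on each side of each gene, was itself a member. Of these, 55 passed the filter on low counts, and their median log2 fold change of CR over aged AL rats was 0.06, with 2 called. They were the left neighbour of 3b, with -0.74 (adjusted p = 0.0273, edgeR), and the right neighbour of 10a, with 0.94 (adjusted p = 0.0232, edgeR). In the comparison with young rats 3 neighbours were called. The left neighbour of 13b had 1.32 (adjusted p = 0.00131, edgeR) and the right neighbour of 3c had 0.80 (adjusted p = 0.0188, edgeR). Also called was the plus-strand gene within the span of 20a, with 0.61 (adjusted p = 0.0168, edgeR). For CR over aged AL rats that gene had 0.09 (adjusted p = 0.796, edgeR). For aged over young AL rats it had 0.52 (adjusted p = 0.0321, edgeR), below the 1.5-fold limit of the call.

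The 28 genes had a median span of 39966.5 bases, against 21338.5 for all eligible genes, and a median of 13 against 9 exon blocks. Their median exonic length was 2925.5 bases, against 2411. Their median of mean CPM was 50.9, against 17.6, and per length their median in AL rats was 15.8 TPM, against 12.3. On the plus strand lay 13 of the 28, or 46.4%, against 49.9% of eligible genes. A gene with more counts has less counting error and can meet a condition on every library more easily, so these figures are given without a test.

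The condition capped the AL values too, and rat 8, which set the highest AL value of 6 genes, has the largest TMM factor. How the 28 genes varied together among the 12 AL rats could depend in part on the choice, which was not tested. Deviations of each rat's TMM-scaled log2 CPM from its own group's mean were correlated for all 378 pairs of the 28 genes. The p-values of single pairs are not given, since the condition capped these values, and the medians are a description. The median Pearson r was 0.40 with TMM factors, where all pairs of eligible genes, which the condition did not cap, had 0.01, and it was 0.17 in CPM. Without rats 7 and 8 it was 0.18 with TMM factors and 0.08 in CPM. Without rat 7 alone it was 0.35 with TMM factors and 0.04 in CPM, and without rat 8 alone 0.36 and 0.23. The value for all pairs of eligible genes was computed only with TMM factors and all 12 rats. The sets were also not matched for level, with a median of mean CPM of 50.9 in the 28 genes and 17.6 in eligible genes. The median thus changed with the scaling and with the rats left out, and the cause was not tested.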

How the data were processed

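Gastrocnemius RNA of 18 rats, 6 per group, was assigned to groups from the sample labels, with 3 CR libraries assigned to the group only. The authors depleted ribosomal RNA, made strand-specific libraries, trimmed reads with cutadapt 1.2.1 and Sickle, mapped them with STAR 2.3.0e and counted read pairs on Rnor_6.0 annotation release 96 with featureCounts 1.6.4, with no strand option in the command line of the file header. What the authors deposited are raw counts, 1 whole number per gene and library, beside each gene's exonic length in bases. Of 32883 identifiers, 3346 had no count. Total counts were 17335401 to 27432767 per library. Those outside the mitochondrial chromosome, on which CPM rests, were 16511181 to 26749924. No sample column was left out (0).

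From the counts, CPM and TPM were computed over all rows outside the mitochondrial chromosome, in Python 3.11.15. The members were chosen as stated in the report. Differences between groups were fitted in R 4.3.3 with edgeR 4.0.16 (filterByExpr, TMM, quasi-likelihood test, 1 fit of 18 libraries, 14646 genes, Benjamini-Hochberg adjustment). Standard errors were obtained from log2 fold change and F. The p-values measure the spread between these rats. Alternatives were DESeq2 1.42.0, other scalings, filters and thresholds, and leaving out libraries. The correlations, their alternatives and the fit without TMM factors were added after the data were seen. No 2 libraries of a group agreed within sampling noise (lowest chi-square per gene 17.5).

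The members, the lists and the tests were chosen with earlier results of these data known. Genes described in full were to be the 20 with the largest ratio of lowest CR to highest AL value, the 3 with the smallest, the 3 just outside, the 10 with the lowest adjusted p between the AL groups, and members of gene lists for the clock, fatty acid use, FoxO and glucocorticoid responses, amino acid transport, redox enzymes and lipid synthesis. Since the identifiers are not paired with symbols here, these lists, cell type markers and promoter motifs were not analysed. For the same reason no sequence is shown.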

Additional observations from a re-analysis of the deposited data

Results flagged for a closer look

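Of the 87 sets of 6 libraries examined, formed by the 28 genes and their summed level in each of 3 groups, 6 held a library that stood apart from the others by the 95% critical value of Dixon's ratio, the gap to the nearest library over the whole range. For independent sets of normally distributed values, chance gives about 1 in 20, here 4.35. These sets share their libraries, and their values chose the genes. That rate therefore does not apply, and nothing is read from the number of sets. In young AL rats, rat 3 had 375 CPM of 3b, where the next rat had 251 (ratio 0.854), and 8.05 CPM of 5c, where the next had 9.68 (0.636). Rat 1 had 25.7 CPM of 10d, where the next had 19.2 (0.656), and rat 2 had 42.3 CPM of 12a, where the next had 59.3 (0.718). In aged CR rats, library 8827 had 13.6 CPM of 5c, where the next had 17.4 (0.682), and library 8828 had 4035 CPM of 13a, where the next had 2674 (0.769).

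Outside the genes compared, the share of counts on 2 mitochondrial genes was above the highest AL library, 3.10%, in 3 aged CR libraries. It was 10.3% in rat 14, 8.52% in library 8826 and 7.89% in library 8827. On the other mitochondrial genes these libraries had 2.12%, 2.01% and 2.50%. There, young AL libraries had 2.36% to 5.25% and aged AL libraries 2.25% to 5.91%.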

How the results depend on the processing

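The number of genes that met the condition was 28, was 28 to 48 over all choices of 1 library to leave out, and was 68 without rat 8 and library 8828. Of the 2 members called in aged against young AL rats, 0 were left by edgeR at an adjusted p of at most 0.01 (8 at an unadjusted p under 0.05), 0 with only the 12 libraries compared in the fit (4 unadjusted), 1 with no filter on low counts, 1 without rat 8 and library 8828, and 1 without TMM factors, which was tried after the data were seen. They ranged from 0 to 2 over the fits without 1 library, with 0 without rat 5 (7 unadjusted), rat 8 (5 unadjusted) or rat 12 (7 unadjusted). DESeq2's Wald test called the same number, 2. The count of 24 genes past the thresholds between aged CR and aged AL rats, which the choice of genes sets, became 13 with the limit on adjusted p set to 0.01, and nothing is read from it. Between the AL groups, the median of the members' log2 fold changes lay between -0.16 and -0.06 in all alternatives but the one without TMM factors, where it was 0.03 and the median of all genes moved from 0.01 to 0.17. The fold changes of the 10 genes with the lowest adjusted p between the AL groups kept their sign in every alternative in which the gene was fitted. The causes of these changes were not tested. Genes with few counts, 3c and 4b, were below 10 counts in some libraries, which limits the precision of their values. No paired analysis was possible because the replicate numbers of the groups are not shared.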
